A study of Mus musculus with 12 samples.

Results

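Mitochondrially encoded transcripts are the RNAs made from the small circular genome inside mitochondria, and they are the genes whose symbol begins with mt- in the mouse annotation. The rule for membership reads the symbol alone, although these genes were taken up with earlier results of the same data known. The count table holds 37 such genes among 55202, of which 13 are mRNAs, 2 are ribosomal RNAs (rRNAs) and 22 are transfer RNAs (tRNAs). The table of the authors' own comparison holds 33 of them among 37140 genes.

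The series holds 12 libraries labelled as macrophages sorted from tumors of Rag1-/- mice, which lack T and B cells. One set of tumors grew from DMBA3-4, a clone of a PyMt mammary tumor line that had been exposed to DMBA, a polycyclic aromatic hydrocarbon carcinogen, and they gave 6 libraries (DMBA3-4 TAM). The control tumors grew from DMSO3-1, a clone of the same line that had been exposed to the vehicle DMSO, and they gave the other 6 libraries (DMSO3-1 TAM). PyMt stands for a tumor driven by the polyoma middle T antigen in mammary epithelium, each group rests on 1 clone, and the age of the mice is not given in the sources used here. No source used here ties the libraries to separate mice. The p-values therefore measure the spread between libraries of a group, and that spread may be technical. Total counts were 3040452 to 4632817 in DMBA3-4 TAM and 2752005 to 3978901 in DMSO3-1 TAM.

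The count table goes against the label of the cells. The genes of the sorted surface proteins were nearly absent, with 0 to 7 counts per library for Ptprc (CD45), 0 to 3 for Itgam (CD11b) and 0 to 3 for Adgre1 (F4/80). The 13 macrophage markers summed to 0.00655% to 0.0102% of counts in DMBA3-4 TAM and 0.00593% to 0.00880% in DMSO3-1 TAM. They held 3.91% of the authors' mean normalized counts, whose table names its libraries otherwise. Among the 13, Mertk (up to 154) and Cd14 (up to 117) reached the highest counts in a library. The 7 epithelial markers, carried by Krt8 and Krt18, held 0.152% to 0.215% in DMBA3-4 TAM and 0.100% to 0.173% in DMSO3-1 TAM. The 7 fibroblast markers held 0.0975% to 0.166% in DMBA3-4 TAM and 0.143% to 0.20% in DMSO3-1 TAM. Col3a1, Dcn and Pdgfrb carried that sum, while Col1a2 had 0 to 4 counts per library and Col1a1 11 to 44. The epithelial and fibroblast sums both exceeded that of the macrophage markers in all 12 libraries, and Epcam was at 0 counts in each library. The libraries are named below as they are labelled, and the part that cell type plays in any difference was not tested. Fewer mitochondria in a cell and less RNA from each mitochondrion cannot be told apart in such bulk samples. On the first 2 principal components of all genes, DMBA3-4 replicate 5 and DMSO3-1 replicates 1 and 6 stood apart from the other libraries of their groups.

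The mitochondrial genome is copied into long RNAs from both strands. In most places a tRNA lies between neighbouring genes, and cutting out the tRNAs frees the mRNAs and rRNAs. Most of the mRNAs then receive an A tail. The 13 mRNAs encode subunits of complexes I, III, IV and V of the respiratory chain, which also hold many subunits made from nuclear genes. The 2 rRNAs and 22 tRNAs serve the translation of these mRNAs inside the mitochondrion.

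The members that moved in opposite directions sit side by side on this genome. Mt-Rnr2 ended at base 2675, the tRNA for leucine mt-Tl1 filled bases 2676 to 2750 and mt-Nd1 began at base 2751, all on the plus strand of the mitochondrial chromosome (GENCODE M21 on GRCm38). The stretch below runs over the last 60 bases of mt-Rnr2, the whole of mt-Tl1 in capitals and the first 60 bases of mt-Nd1, at chrM:2616-2810.
mt-Rnr2 end, mt-Tl1 and mt-Nd1 start: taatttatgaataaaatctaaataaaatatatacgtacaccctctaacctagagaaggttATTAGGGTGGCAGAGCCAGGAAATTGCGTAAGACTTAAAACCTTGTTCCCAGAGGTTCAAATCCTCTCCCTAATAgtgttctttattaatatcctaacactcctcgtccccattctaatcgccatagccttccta

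Of the 13 mRNAs, 10 end in a whole stop codon and 3 do not. The ends of mt-Cytb, mt-Nd4 and mt-Co3 are shown because each stops 1 base into the stop codon, the base in capitals, and the A tail supplies the rest of it in the cell. Their coordinates are chrM:15259-15288, chrM:11515-11544 and chrM:9361-9390, on the plus strand.
mt-Cytb end: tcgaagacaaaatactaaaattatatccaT
mt-Nd4 end: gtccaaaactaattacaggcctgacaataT
mt-Co3 end: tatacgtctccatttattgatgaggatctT

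Some members have near-identical copies in the nuclear genome, and their counts are therefore uncertain. On chromosome 1, minus strand, 7 annotated unprocessed pseudogenes lie in a row between bases 24611535 and 24616197, each with at least 98% identity to a mitochondrial mRNA. They match mt-Co2, mt-Atp6, mt-Co3, mt-Nd3 and mt-Nd4l over 99.0% to 99.9% of their length, mt-Nd4 over 63.6% and mt-Co1 over 31.3%. The copy of mt-Nd3, Gm28438, differs from it at 1 of 345 aligned bases, T3C, counted from the first base of mt-Nd3 with the mitochondrial base given before the position. The starts of both, at chrM:9459-9491 and chr1:24613087-24613119, are shown with that base in capitals.
mt-Nd3: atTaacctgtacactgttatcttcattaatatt
Gm28438: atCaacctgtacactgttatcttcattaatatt

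The copied stretches of mt-Co1 and mt-Nd4 end inside the gene, and the edges, at chrM:6360-6419 and chrM:11013-11072, are shown. The edges divide the bases matched by a nuclear copy at 98% identity or more from those that are not. Another nuclear transcript, Gm13340, matches mt-Co1 at 97.6% identity over 1545 bases. The other bases of mt-Co1 are therefore not free of similar nuclear sequence. Capitals mark the bases aligned to the copy at 98% identity or more. In mt-Co1 that copy, Gm29216, begins at base 1063 of 1545, and its only difference, A1066T, falls among the capitals. In mt-Nd4 the copy ends at base 876 of 1378, with no difference.
mt-Co1 at the edge of its nuclear copy: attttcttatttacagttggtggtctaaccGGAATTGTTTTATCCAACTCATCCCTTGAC
mt-Nd4 at the edge of its nuclear copy: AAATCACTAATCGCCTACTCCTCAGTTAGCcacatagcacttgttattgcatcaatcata

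Overlapping genes share counts in the same way. Mt-Atp8 and mt-Atp6, the subunits of the membrane part of complex V, are read from the same RNA in different frames and share 43 bases, in capitals in the stretch at chrM:7897-7999. Mt-Nd4l and mt-Nd4 share 7 bases. Mt-Nd6 lies on the minus strand and shares 14 bases with mt-Nd5 on the plus strand, and whether the counting used strand is not given in the sources used here.
mt-Atp8 end and mt-Atp6 start: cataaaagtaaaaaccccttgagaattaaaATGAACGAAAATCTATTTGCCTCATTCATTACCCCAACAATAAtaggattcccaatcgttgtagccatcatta

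In the DMBA3-4 TAM libraries mitochondrial mRNA held more of the counts and mitochondrial rRNA held less. The 13 mRNAs summed to 1.28%, 2.27% and 2.92% of counts in DMBA3-4 TAM (lowest, median and highest of 6 libraries) and to 0.669%, 1.03% and 1.31% in DMSO3-1 TAM. The 2 rRNAs summed to 0.572%, 0.630% and 0.934% in DMBA3-4 TAM and to 1.52%, 2.27% and 3.43% in DMSO3-1 TAM. The rRNA shares did not overlap between the groups, whereas the mRNA share of DMBA3-4 replicate 6, the lowest of its group, lay below that of the highest DMSO3-1 library.

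All 37 members together held 2.89% ± 0.541 of counts in DMBA3-4 TAM and 3.39% ± 0.707 in DMSO3-1 TAM (SD, n = 6 each), and the groups overlapped. The ratio of summed rRNA to summed mRNA counts was 0.224, 0.303 and 0.732 in DMBA3-4 TAM and 1.29, 2.55 and 4.87 in DMSO3-1 TAM (lowest, median and highest). In counts, the mRNAs thus outweighed the rRNAs in every DMBA3-4 library and the rRNAs outweighed the mRNAs in every DMSO3-1 library. In the authors' table of mean normalized counts, which has no value per library, the mRNAs held 1.25% and the rRNAs 1.41%.

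**Figure D1:**
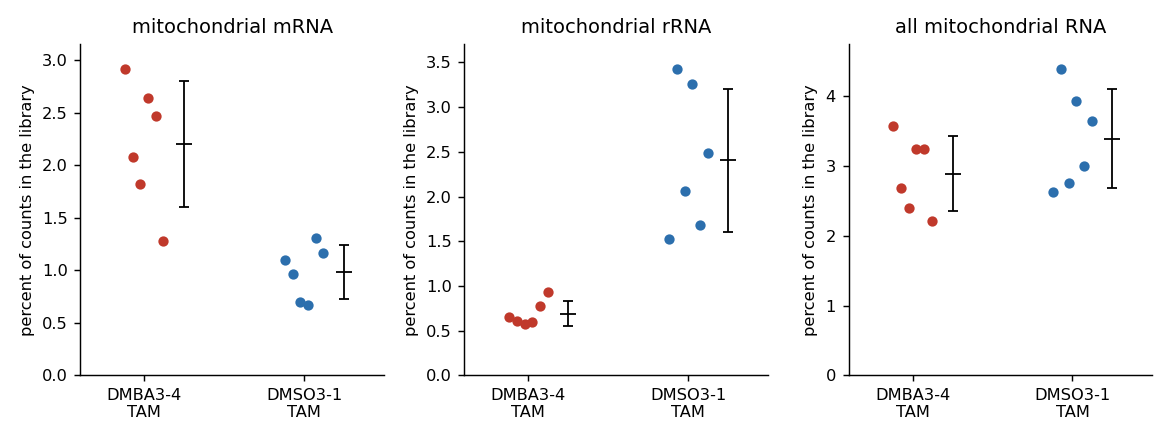
Percent of the counts in each library that fell on mitochondrial mRNAs, on mitochondrial rRNAs and on all 37 mitochondrial genes, for the 6 DMBA3-4 TAM and 6 DMSO3-1 TAM libraries. Each point is a library, and the bar beside the points is the mean with its SD. The rRNA panel has no overlap between the groups, and the panel of all members does.

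Of the 13 mRNAs, 11 had enough counts to be tested, and in DMBA3-4 TAM 9 of these rose and 0 fell (edgeR, quasi-likelihood test, adjusted p under 0.05). At an unadjusted p under 0.05, 10 were higher and 0 lower. Of all 11511 tested genes, 29.9% rose and 30.2% fell, with a median log2 fold change of 0.00, so calls were common throughout the table. The median log2 fold change of the 11 mRNAs was 1.24, and their values ranged over 0.40 to 1.57. None of the 11 had groups without overlap in counts scaled to a common library size, against 32.2% of all tested genes.

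Removing DMSO3-1 replicates 2 to 5 left the 2 DMSO3-1 libraries that stand apart, and 2 mRNAs, mt-Cytb and mt-Co3, then passed the test as higher. Removing replicates 1 and 6 instead changed the call of 2 members only, mt-Nd3 and mt-Nd6. With replicates 2 to 5 removed, all 9 mRNAs kept a positive log2 fold change, of 0.20 to 1.43. That of mt-Nd4 was 1.33 (adjusted p = 0.0548) and that of mt-Nd6 was 0.73 (adjusted p = 0.118). With 2 DMSO3-1 libraries left, a lost call does not show a smaller difference.

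The complex III member rose and had the highest mean CPM per kilobase of all mRNAs in DMBA3-4 TAM. Mt-Cytb, the cytochrome b that carries the quinone sites of complex III, had 3162, 6932 and 10002 CPM in DMBA3-4 TAM and 1454, 2490 and 3502 CPM in DMSO3-1 TAM (lowest, median and highest of 6). CPM here are counts scaled by TMM to a common library size. Its log2 fold change was 1.52 (SE 0.27, adjusted p = 2.60e-04). Only DMBA3-4 replicate 6 reached down into the DMSO3-1 values, the next lowest library of its group being at 5935 CPM. As a share of all counts the groups did not overlap, with 0.3403% or more in DMBA3-4 TAM and 0.3402% or less in DMSO3-1 TAM.

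Complex I, which oxidises NADH, had 6 tested members of 7, of which 4 rose, where 29.9% of all tested genes rose. Mt-Nd4, a subunit of the proton-pumping arm, had 533, 1180 and 1823 CPM in DMBA3-4 TAM and 302, 428 and 536 CPM in DMSO3-1 TAM, a log2 fold change of 1.52 (SE 0.25, adjusted p = 1.17e-04). Mt-Nd1, at the joint of the membrane arm and the matrix arm, had 3329, 5761 and 7703 CPM in DMBA3-4 TAM and 2349, 3310 and 4663 CPM in DMSO3-1 TAM, a log2 fold change of 0.80 (SE 0.21, adjusted p = 0.00460). In both, DMBA3-4 replicate 6 was the lowest library of its group and fell among the DMSO3-1 values. For mt-Nd1, DMBA3-4 replicate 3, at 4194 CPM, also lay below the highest DMSO3-1 library.

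Mt-Nd5 and mt-Nd6 rose less. Mt-Nd5, at the far end of the membrane arm, had 1083, 1321 and 1652 CPM in DMBA3-4 TAM and 847, 1011 and 1251 CPM in DMSO3-1 TAM (log2 fold change 0.40, SE 0.13, adjusted p = 0.0130). Mt-Nd6, the only mRNA read from the minus strand of the annotation, had 62.6, 98.1 and 166 CPM in DMBA3-4 TAM and 44.0, 60.3 and 100.1 CPM in DMSO3-1 TAM (0.64, SE 0.24, adjusted p = 0.0309). The call of mt-Nd6 was lost when any of 5 single libraries was left out, DMBA3-4 replicates 1 and 4 and DMSO3-1 replicates 1, 3 and 4, with adjusted p-values of 0.0594 to 0.0764.

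The other complex I members did not pass or could not be tested. Mt-Nd2 had 131, 225 and 390 CPM in DMBA3-4 TAM and 77.2, 143 and 279 CPM in DMSO3-1 TAM (log2 fold change 0.62, SE 0.33, adjusted p = 0.124), and it passed without DMSO3-1 replicate 5 (adjusted p = 0.0346). Mt-Nd3, which lies almost wholly inside a nuclear copy, had 12 to 27 counts in the DMBA3-4 libraries and 13, 1, 1, 1, 0 and 18 counts in DMSO3-1 replicates 1 to 6, so that replicates 1 and 6 stood with the DMBA3-4 libraries. Its log2 fold change was 1.42 (SE 0.65, adjusted p = 0.0718), it passed without DMSO3-1 replicate 1 (1.75, adjusted p = 0.0479) or replicate 6 (2.32, adjusted p = 0.00367), and without DMSO3-1 replicates 2 to 5 it was -0.066. Mt-Nd4l had 1 to 5 counts in DMBA3-4 TAM and 0 to 7 in DMSO3-1 TAM, and no difference was detectable at this depth (two-sided exact permutation test, p = 0.784).

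Complex IV, cytochrome c oxidase, had all 3 of its mitochondrial members called higher, where 29.9% of all tested genes were. Mt-Co1, the subunit that holds the catalytic center, had 3352, 6544 and 8717 CPM in DMBA3-4 TAM and 1645, 2649 and 3670 CPM in DMSO3-1 TAM (log2 fold change 1.24, SE 0.23, adjusted p = 3.85e-04). DMBA3-4 replicate 6 again was the lowest of its group, and the other 5 stood above every DMSO3-1 library, at 5308 CPM or more.

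The other complex IV members had far fewer counts. Mt-Co2, which receives electrons from cytochrome c, had 37, 70.5 and 105 counts in DMBA3-4 TAM and 3, 15.5 and 45 counts in DMSO3-1 TAM, a log2 fold change of 1.57 (SE 0.41, adjusted p = 0.00369). Mt-Co3, a structural subunit, had 19, 40.5 and 53 counts in DMBA3-4 TAM and 7, 13 and 18 counts in DMSO3-1 TAM, a log2 fold change of 1.32 (SE 0.29, adjusted p = 9.82e-04). The raw counts of mt-Co3 did not overlap between the groups, nor did those of mt-Cytb, mt-Co1, mt-Nd4 and mt-Atp8, but the CPM of each of them did.

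Complex V, the ATP synthase, had few counts of either member. Mt-Atp6, part of the proton channel, had 53, 83.5 and 136 counts in DMBA3-4 TAM and 15, 27 and 69 counts in DMSO3-1 TAM (log2 fold change 1.09, SE 0.33, adjusted p = 0.0106). Mt-Atp8 was too low for edgeR, at 7 to 18 counts in DMBA3-4 TAM and 0 to 6 in DMSO3-1 TAM. Its CPM overlapped between the groups, and a two-sided exact permutation test gave p = 0.00433, the smallest of 19 such tests on untested members and not adjusted over them.

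**Figure D2:**
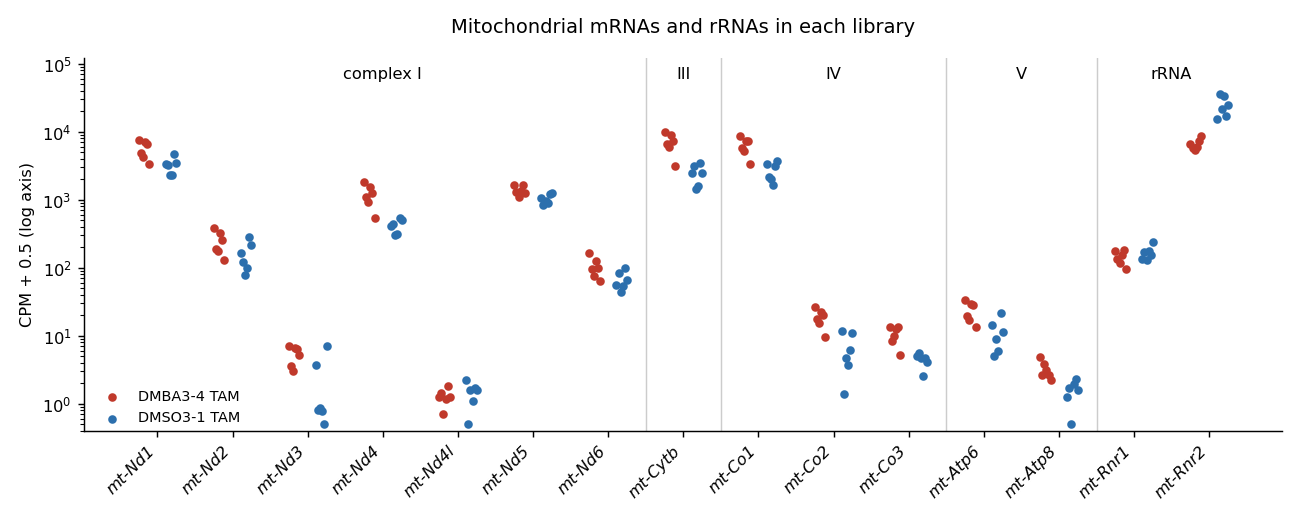
CPM plus 0.5 on a log axis for each of the 13 mitochondrial mRNAs, by respiratory complex, and the 2 rRNAs. Each point is a library, with the 6 DMBA3-4 TAM libraries left of the 6 DMSO3-1 TAM libraries. Among these 15 genes, mt-Rnr2 alone has groups that do not overlap, and mt-Nd3 shows 2 DMSO3-1 libraries level with the DMBA3-4 libraries.

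Per kilobase the mRNAs fell into levels far apart, although they come from shared precursor RNAs. In mean CPM per kilobase, mt-Cytb stood at 6107 ± 2102 in DMBA3-4 TAM and 2133 ± 712 in DMSO3-1 TAM (SD, n = 6 each), and mt-Nd1 stood at 5889 ± 1821 in DMBA3-4 TAM and 3389 ± 898 in DMSO3-1 TAM. Mt-Co1 followed, at 4088 ± 1225 in DMBA3-4 TAM and 1731 ± 536 in DMSO3-1 TAM. In DMBA3-4 TAM the means of mt-Cytb and mt-Nd1 differed by less than 1 SD of either. In DMSO3-1 TAM mt-Nd1 led, and mt-Cytb and mt-Co1 differed by less than 1 SD of either.

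The next mRNAs were mt-Nd4, at 870 ± 330 CPM per kilobase in DMBA3-4 TAM and 303 ± 68.7 in DMSO3-1 TAM, and mt-Nd5, at 755 ± 122 in DMBA3-4 TAM and 571 ± 91.7 in DMSO3-1 TAM. They were followed by mt-Nd2, at 236 ± 94.9 in DMBA3-4 TAM and 154 ± 73.7 in DMSO3-1 TAM, and mt-Nd6, at 201 ± 71.6 in DMBA3-4 TAM and 129 ± 40.6 in DMSO3-1 TAM. Within each of these pairs the levels in DMBA3-4 TAM differed by less than the SD of the higher gene.

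These levels take the whole length of each mRNA. The order changes when only the bases without a nuclear copy at 98% identity or more are taken as length. That length still counts bases of mt-Co1 that Gm13340 matches below 98% identity. Mt-Co1 then stood at 5947 CPM per kilobase in DMBA3-4 TAM and 2518 in DMSO3-1 TAM, above mt-Nd1 in DMBA3-4 TAM and above mt-Cytb in DMSO3-1 TAM. Mt-Nd4 then stood at 2389 in DMBA3-4 TAM and 831 in DMSO3-1 TAM, above mt-Nd5 in both groups. Which length fits depends on how reads that match both genomes were counted, which is not given in the sources used here.

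All 6 remaining mRNAs stood at 34.1 CPM per kilobase or less in both groups. Mt-Atp6 had a mean of 34.1 CPM per kilobase in DMBA3-4 TAM and 15.8 in DMSO3-1 TAM, and mt-Co2 had 26.4 in DMBA3-4 TAM and 8.81 in DMSO3-1 TAM. Mt-Nd4l was the lowest, with 2.62 in DMBA3-4 TAM and 3.22 in DMSO3-1 TAM. Of these 6, 5 are the mRNAs that a nuclear copy at 98% identity or more matches over more than 90% of their length. The other is mt-Atp8, which has no annotated copy at that identity. On chromosome 1, however, the copies of mt-Co2 and mt-Atp6 are 233 bases apart, exactly as on the mitochondrial genome, where mt-Atp8 lies between them.

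The whole block, from base 6390 to base 11042 of the mitochondrial genome, spans 4653 bases there and 4654 bases on chromosome 1. It holds 11 members from end to end, and no library had more than 136 counts of any of its 6 mRNAs or more than 6 counts of any of its 5 tRNAs. The 7 mRNAs that lie outside it, or partly outside, had 123 counts or more in every library. The tRNAs did not divide in this way, since 10 of the 17 outside the block also had no more than 6 counts in any library. The same drop stood in the authors' table, where mt-Co2 had a mean normalized count of 61.4 per kilobase against 14579 for mt-Nd1. Reads that match both genomes may have been dropped or split by the counting, which the sources used here do not describe, so the levels of these members are uncertain, and how far the copies set them was not tested.

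**Figure D3:**
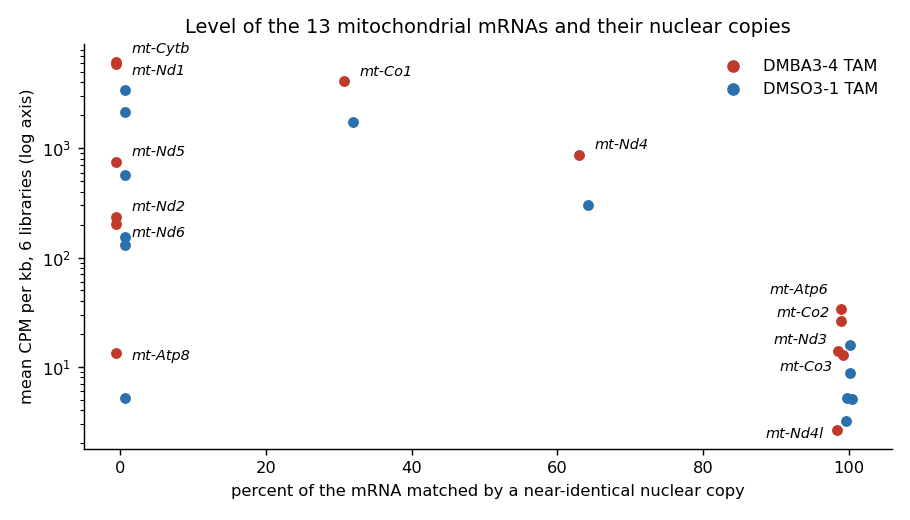
Mean CPM per kilobase over 6 libraries on a log axis, against the percent of each of the 13 mitochondrial mRNAs that is matched by a nuclear copy at 98% identity or more. Red points are DMBA3-4 TAM and blue points DMSO3-1 TAM, set slightly apart along the x axis. The 5 mRNAs copied over more than 90% of their length, and mt-Atp8, lie at 34.1 CPM per kilobase or less.

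The nuclear copies themselves held few counts, which moved in the direction of the mitochondrial mRNAs. The 7 copies summed to 139 to 770 counts in the DMBA3-4 libraries and 59 to 152 in the DMSO3-1 libraries. Of the 4 that could be tested, all 4 rose, where 29.9% of all tested genes rose. The log2 fold changes were 1.40 for Gm28437 (the copy of mt-Co3), 1.62 for Gm28661 (mt-Co2) and 1.67 for Gm10925 (mt-Atp6). That of Gm29216 (mt-Co1) lay between the first pair, and the adjusted p-values were 0.00164 to 0.0130 (edgeR). Gm10222, Gm28438 and Gm28439 had too few counts to be tested. Gm10925 had 628 counts in DMBA3-4 replicate 3 and 60 to 157 in the other 5 DMBA3-4 libraries, against 15 to 73 in DMSO3-1 TAM. Its log2 fold change was 1.04 without DMBA3-4 replicate 3, where it still passed, and it did not pass with no filter on low counts (adjusted p = 0.0521). Counts of a copy and of its mitochondrial gene cannot be told apart where the bases are the same.

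Ratios between members of the same library do not depend on the scaling between libraries. Each of the 13 mRNAs was set against the sum of the others, and mt-Rnr2 against mt-Rnr1, which gave 14 ratios tested by two-sided exact permutation over all splits of 6 against 6, with Benjamini-Hochberg adjustment over the 14. Of these, 7 passed an adjusted p of 0.05, although the ratios of the mRNAs are not independent of each other, since each mRNA enters the sum for the others. All 7 calls were lost without DMSO3-1 replicates 2 to 5 (adjusted p = 0.0625 to 0.308), where the smallest raw p that the splits can give is 0.0357. The ratio of mt-Nd6 was the one with the highest adjusted p there, at a log2 difference of -0.17.

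Within the mRNAs, mt-Cytb and mt-Nd4 made up more and mt-Nd1, mt-Nd2, mt-Nd5 and mt-Nd6 made up less in DMBA3-4 TAM. Mt-Cytb took 31.5% ± 2.74 of mRNA counts in DMBA3-4 TAM and 24.0% ± 4.08 in DMSO3-1 TAM (SD, n = 6 each; log2 difference in its ratio to the others 0.55, exact permutation, adjusted p = 0.0202). Mt-Nd4 took 5.35% ± 0.520 in DMBA3-4 TAM and 4.17% ± 0.260 in DMSO3-1 TAM (0.37, exact permutation, adjusted p = 0.0202). These shares sum to 100 with those of the other mRNAs, so a gain of some is a loss of others.

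Mt-Nd1 took 25.8% ± 1.67 of mRNA counts in DMBA3-4 TAM and 32.3% ± 1.80 in DMSO3-1 TAM (log2 difference in ratio -0.46, exact permutation, adjusted p = 0.0152), and its groups did not overlap. The raw p of that ratio, 0.00216, is the smallest that these splits can give. Mt-Nd5 took 6.71% ± 2.01 in DMBA3-4 TAM and 10.7% ± 2.04 in DMSO3-1 TAM (-0.76, exact permutation, adjusted p = 0.0202), with DMBA3-4 replicate 6 at 10.6% standing among the DMSO3-1 libraries.

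Mt-Nd6 took 0.475% ± 0.0550 of mRNA counts in DMBA3-4 TAM and 0.669% ± 0.132 in DMSO3-1 TAM (log2 difference -0.48, exact permutation, adjusted p = 0.0202). Mt-Nd2 took 1.10% ± 0.128 in DMBA3-4 TAM and 1.52% ± 0.380 in DMSO3-1 TAM (-0.45, exact permutation, adjusted p = 0.0433), and this call was lost with any of 9 single libraries left out. Mt-Co1, at 28.8% ± 0.870 in DMBA3-4 TAM and 26.5% ± 4.17 in DMSO3-1 TAM, did not pass (0.18, exact permutation, adjusted p = 0.223). Of the complex I mRNAs, 4 that were higher or not called in CPM were thus lower as a share of mitochondrial mRNA, while mt-Nd4 was higher on both scales.

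The rRNA of the large ribosomal subunit fell and that of the small subunit did not pass the test. Mt-Rnr2, of the large subunit, had 5474, 6313 and 8586 CPM in DMBA3-4 TAM and 15178, 23075 and 35538 CPM in DMSO3-1 TAM (lowest, median and highest of 6). No library of either group reached the values of the other. Its log2 fold change was -1.89 (SE 0.21, adjusted p = 2.05e-06), and every alternative that was run kept it lower with an adjusted p of 4.83e-05 or less.

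Mt-Rnr1, of the small subunit, had 95.0, 142 and 181 CPM in DMBA3-4 TAM and 129, 164 and 241 CPM in DMSO3-1 TAM (log2 fold change -0.24, SE 0.18, adjusted p = 0.257). The 2 rRNAs come from the same precursor and are needed in equal numbers in the ribosome, but per kilobase mt-Rnr2 stood at 4202 ± 747 CPM and mt-Rnr1 at 149 ± 36.2 CPM in DMBA3-4 TAM. In DMSO3-1 TAM the levels per kilobase were 15566 ± 5345 CPM for mt-Rnr2 and 176 ± 42.5 CPM for mt-Rnr1 (SD, n = 6 each). Mt-Rnr2 therefore had the most counts per kilobase of all members in DMSO3-1 TAM. In DMBA3-4 TAM its mean lay between those of mt-Co1 and mt-Nd1 over their whole length. These are levels of counts, and how evenly the library kit captured rRNAs, tRNAs and mRNAs was not tested.

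Counts of mt-Rnr2 for each count of mt-Rnr1 were 37.1, 43.5, 47.0, 39.5, 40.9 and 90.3 in DMBA3-4 replicates 1 to 6. They were 113, 205, 165, 191, 110.1 and 103 in DMSO3-1 replicates 1 to 6. DMBA3-4 replicate 6 stood far above the other 5 of its group but below every DMSO3-1 library. The log2 difference in the ratio was -1.59 (exact permutation, p = 0.00216 and adjusted p = 0.0152, the raw p being the smallest possible).

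Some other RNAs were also lower in DMBA3-4 TAM, as were 30.2% of all tested genes. Gm26917, a long noncoding gene listed here as a row that collects ribosomal precursor reads, had 542, 666 and 1816 CPM in DMBA3-4 TAM and 1591, 6104 and 14678 CPM in DMSO3-1 TAM (log2 fold change -2.995, SE 0.55, adjusted p = 6.27e-04). In DMBA3-4 TAM its highest library was replicate 6, also the highest for mt-Rnr2, and in DMSO3-1 TAM replicates 2 and 4 were the highest for both. Of the polyadenylated nuclear RNAs, Neat1 had 615 to 1386 CPM in DMBA3-4 TAM and 2316 to 5695 CPM in DMSO3-1 TAM, and Malat1 had 906 to 1557 CPM in DMBA3-4 TAM and 1147 to 2258 CPM in DMSO3-1 TAM. By library, Neat1 was highest in DMBA3-4 replicate 6 (0.149% of counts), also the highest of its group for mt-Rnr2. In DMSO3-1 TAM, Neat1 was highest in replicate 4 (0.548%), with replicate 3 at 0.469% and replicate 2 at 0.452%. Malat1 did not follow mt-Rnr2 by library, since DMSO3-1 replicate 2 was the highest of its group for mt-Rnr2 and the lowest for Malat1. The log2 fold changes of these RNAs were -2.23 for Neat1 and -0.55 for Malat1 (edgeR, adjusted p = 6.28e-06 for Neat1 and 0.0110 for Malat1), and the part of RNA quality or library content in the fall of mt-Rnr2 was not tested.

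Other quality measures did not all move the same way. The nuclear RNAs without an A tail, mostly histone mRNAs, summed to 0.0334% to 0.0523% of counts in DMBA3-4 TAM and 0.0254% to 0.0398% in DMSO3-1 TAM. The groups overlapped, and the DMBA3-4 mean was the higher. With Gm26917 and all mitochondrial genes left out of the scaling, an alternative chosen after the data were seen, mt-Rnr2 had a log2 fold change of -1.88 (adjusted p = 1.28e-06).

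**Figure D4:**
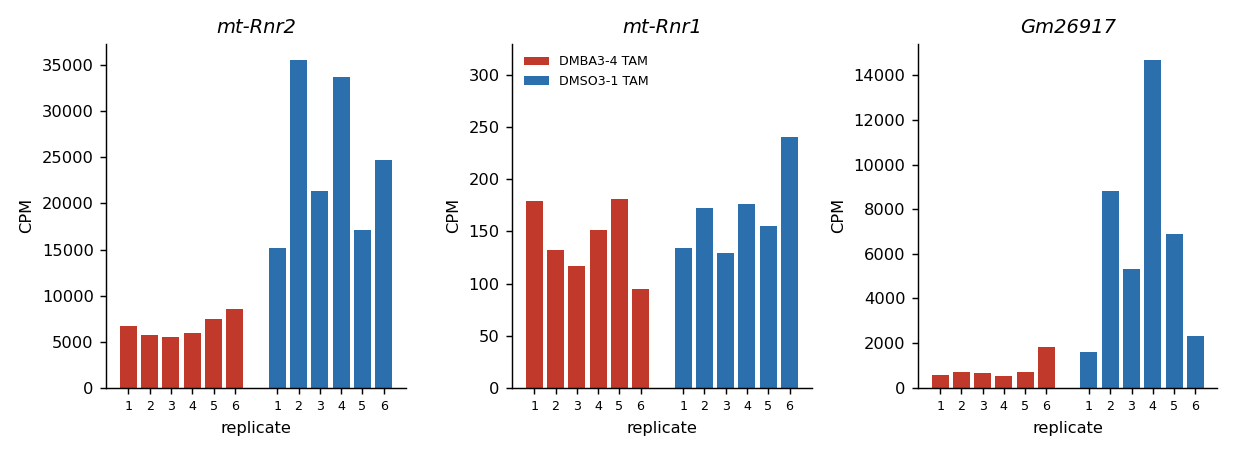
CPM of mt-Rnr2, mt-Rnr1 and Gm26917 in each library, as bars that start at 0, with replicates 1 to 6 of DMBA3-4 TAM on the left and replicates 1 to 6 of DMSO3-1 TAM on the right of each panel. The 6 DMBA3-4 libraries lie between 5474 and 8586 CPM for mt-Rnr2, below every DMSO3-1 library, while mt-Rnr1 overlaps between the groups.

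The tRNAs, which carry amino acids to the mitochondrial ribosome, gave few counts. Of 22, 6 reached 10 counts in any library, 13 reached 1 to 9 at most, and mt-Ty, mt-Td and mt-Tk had 0 in all 12 libraries, which allows up to 0.000109% of counts in the shallowest library by counting error alone. The 22 together held 0.00162% to 0.00270% of counts in DMBA3-4 TAM and 0.00180% to 0.00311% in DMSO3-1 TAM. These ranges overlapped almost wholly.

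Only 2 tRNAs could be tested. Mt-Tl1, the leucine tRNA shown above between mt-Rnr2 and mt-Nd1, fell, with 23, 32, 23, 10, 25 and 15 counts in DMBA3-4 replicates 1 to 6 and 35, 23, 41, 25, 30 and 32 counts in DMSO3-1 replicates 1 to 6 (log2 fold change -0.85, SE 0.26, adjusted p = 0.0104). Its counts thus went the way of its upstream neighbour mt-Rnr2 and not that of mt-Nd1 downstream, though its groups overlapped. Mt-Rnr2, which it directly adjoins, had 17821 to 34712 counts in the DMBA3-4 libraries and 56756 to 116805 in the DMSO3-1 libraries. Whether the mt-Tl1 counts come from the freed tRNA was not tested. Mt-Tp, the proline tRNA on the minus strand, had 16 to 29 counts in DMBA3-4 TAM and 7 to 19 in DMSO3-1 TAM (log2 fold change 0.49, SE 0.26, adjusted p = 0.114).

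The other 4 tRNAs with 10 counts or more in a library were too low for edgeR. The counts of mt-Tq (glutamine) were 5 to 24 in DMBA3-4 TAM and 4 to 13 in DMSO3-1 TAM, and those of mt-Tm (methionine) were 1 to 8 in DMBA3-4 TAM and 0 to 13 in DMSO3-1 TAM. The counts of mt-Ta (alanine) were 2 to 11 in DMBA3-4 TAM and 0 to 6 in DMSO3-1 TAM, and those of mt-Tc (cysteine) were 1 to 12 in DMBA3-4 TAM and 1 to 3 in DMSO3-1 TAM. Two-sided exact permutation tests gave p = 0.814 for mt-Tq, 0.734 for mt-Tm, 0.0866 for mt-Ta and 0.0887 for mt-Tc, unadjusted, so no difference was detectable at this depth.

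Nuclear genes that make the partners of these mRNAs were also higher for the most part. Of 71 tested nuclear-encoded subunits of complexes I, III, IV and V, 59 rose and 1 fell, where 29.9% of all tested genes rose and 30.2% fell. That is 83.1% higher and 1.41% lower, with a median log2 fold change of 0.66 against 0.00 for all genes. The subunits listed under complex I, taken by symbols that begin with Nduf and so including Ndufa4, rose for 35 of 37. Those listed under complex III rose for 7 of 9, under complex IV for 7 of 10 and under complex V for 10 of 15.

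Most of the named subunits rose. Ndufs6, a complex I subunit, averaged 78.5 ± 17.4 CPM in DMBA3-4 TAM and 31.2 ± 10.5 CPM in DMSO3-1 TAM (SD, n = 6 each; log2 fold change 1.33), and Ndufa13 was at 1.11. Ndufv1, which binds NADH in complex I, was the subunit that fell, with 176 ± 13.5 CPM in DMBA3-4 TAM and 228 ± 25.4 CPM in DMSO3-1 TAM (-0.37, adjusted p = 0.00400). Log2 fold changes were 1.36 for Uqcr11 and 1.03 for Uqcr10 in complex III, 0.83 for Cox6a1 and 0.69 for Cox5b in complex IV, and 0.95 for Atp5k and 0.90 for Atp5g1 in complex V. Nuclear and mitochondrial subunits of each of these complexes were thus higher for the most part, and the median was smaller for the nuclear ones in complexes III, IV and V.

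**Figure D5:**
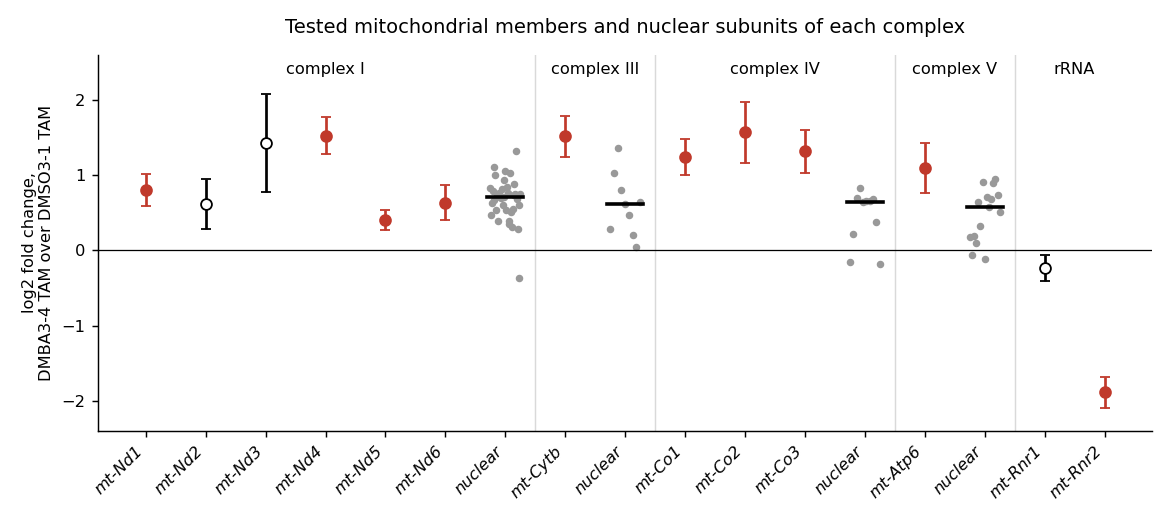
Log2 fold change of DMBA3-4 TAM over DMSO3-1 TAM with its standard error for each tested mitochondrial mRNA and rRNA, filled red where the adjusted p is under 0.05 and open where it is not. Grey points are the nuclear subunits listed under the same complex, with a black line at their median. Mt-Rnr2 at -1.89 is the only mitochondrial gene shown that was called lower.

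Nuclear genes that act on mitochondrial DNA and RNA were mixed. Of 101 tested genes in 5 lists, 36 rose and 14 fell (35.6% and 13.9%, against 29.9% and 30.2% of all tested genes), with a median log2 fold change of 0.21. Without DMSO3-1 replicate 2, 9 in place of 14 fell. Genes of DNA copying and transcription were balanced, with 6 of 18 higher and 6 lower. Polrmt, the mitochondrial RNA polymerase, averaged 27.4 ± 11.2 CPM in DMBA3-4 TAM and 44.7 ± 4.03 CPM in DMSO3-1 TAM (SD, n = 6 each; log2 fold change -0.70, adjusted p = 0.00676).

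The replication helicase Twnk also fell (-0.84), while Ssbp1, which binds single-stranded mitochondrial DNA, rose (0.80), as did Mterf3, a repressor of mitochondrial transcription in mouse (0.83). Of 22 genes of RNA processing, A-tailing and decay, 7 rose and 4 fell (31.8% and 18.2%, against 29.9% and 30.2% of all tested genes). Rexo2, which degrades short RNAs, averaged 277 ± 38.1 CPM in DMBA3-4 TAM and 87.9 ± 21.5 CPM in DMSO3-1 TAM (SD, n = 6 each; log2 fold change 1.66, adjusted p = 5.01e-07). The partners Lrpprc and Slirp, which together protect mitochondrial mRNAs, moved in opposite directions, with log2 fold changes of -0.78 for Lrpprc and 0.84 for Slirp (adjusted p = 1.58e-04 for Lrpprc and 5.89e-04 for Slirp), and Fastk, of a family of mitochondrial RNA-binding proteins, fell (-0.96).

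Genes that modify mitochondrial rRNA or help assemble the ribosome rose for 7 of 20 and fell for 1 (35.0% and 5.0%). Of all tested genes, 29.9% rose and 30.2% fell. Among them, Mtg1 and Mtg2, GTPases of ribosome assembly, had log2 fold changes of 0.88 and 0.84. Translation factors rose for 7 of 14 and fell for 1, with 0.58 for Tsfm and 0.41 for Mtif2, which act in elongation and initiation, and the call of Mtif2 was lost with any of 6 single libraries left out. Genes that charge or modify tRNAs rose for 9 of 27 and fell for 2. The arginine enzyme Rars2 was at 1.07 and the histidine enzyme Hars2 at 0.82, while the leucine enzyme Lars2 fell, with 407 ± 163 CPM in DMBA3-4 TAM and 756 ± 108 CPM in DMSO3-1 TAM (SD, n = 6 each; log2 fold change -0.89, adjusted p = 0.00139).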

How the data were processed

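The authors deposited whole-number counts per gene for 12 libraries, not normalized, and results of their own test. That second table holds a mean normalized count per gene (a signal that the authors deposited as a mean over libraries), a log2 fold change, its standard error, a test statistic and p-values. Only the mean was used from it. The submitters' notes name GRCm38 (mm10), and which aligner and counter were used is not given in the sources used here. Column purification and a SMARTER kit are named in the labels, TCL lysis and SmartSeq2 in the paper's methods. In the count table, 19 entries without a gene name (0.0893% to 0.128% of counts) were left out.

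Counts were filtered with filterByExpr, scaled by TMM and tested with edgeR 4.0.16 (robust quasi-likelihood, Benjamini-Hochberg adjustment over 11511 genes, adjusted p under 0.05) in R 4.3.3. Alternatives were DESeq2 1.42.0, limma-voom (limma 3.58.1), other scalings and filters, a replicate block and libraries left out. Ratios took 0.5 counts added to each term, and genes too low for edgeR were tested on log2(CPM + 0.5). The edgeR, DESeq2 and limma-voom fits were checked on simulated counts with fewer changed genes than were called here. The exact permutation tests were not checked in this way. Every pair of libraries differed beyond sampling noise (chi-square per gene of 2.65 or more). Nuclear copies were sought with blastn 2.17.0 (98% identity, 50 bp) in GENCODE M21. Summed shares were to be tested but are given without a p-value, since the members form a list. Every mitochondrial mRNA and rRNA, tRNAs with 10 counts in a library, and of each nuclear list the 2 largest calls each way at 20 CPM or more were named. The members and lists were chosen with earlier results of these data known. Intervals and floors cover counting error only.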

Additional observations from a re-analysis of the deposited data

Results flagged for a closer look

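In 7 of 88 groups of 6 libraries, a library lay farther from its nearest neighbour than Dixon's criterion allows at 6 libraries, where chance gives about 1 in 20. DMBA3-4 replicate 6 was such a library for 3 values. Its ratio of summed rRNA to summed mRNA was 0.732, against 0.224 to 0.315 in the other 5 libraries of its group. Its log2 ratio of mt-Rnr2 to mt-Rnr1 was 6.50, against 5.21 to 5.55, and its log2 ratio of mt-Nd5 to the other mitochondrial mRNAs was -3.07, against -4.23 to -3.81. This library also had the lowest share of mitochondrial mRNA and the highest Gm26917 of its group, at 1816 CPM.

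The remaining values concern members or copies with few counts or shared bases. In DMSO3-1 replicate 2 the log2 ratio of mt-Nd4l to the other mitochondrial mRNAs was -16.0, against -13.3 to -12.5, with 0 counts of mt-Nd4l. Gm10925, the nuclear copy of mt-Atp6, had 628 counts in DMBA3-4 replicate 3, against 60 to 157. In DMBA3-4 replicate 1, Gm28661 had 103 counts against 26 to 51, and Gm29216 had 161 against 28 to 72.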

How the results depend on the processing

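Of the 15 tested members, none changed its call under DESeq2, DESeq2 size factors, library totals, scaling without mitochondrial genes or 10 counts in every library of a group. With limma-voom, no filter or the replicate block, mt-Nd3 alone did, becoming called. No pairing by replicate number was seen, with deviations of same-numbered libraries correlated at -0.158 to 0.129, which cannot exclude a weak pairing. With the replicate block the log2 difference in mt-Rnr2 to mt-Rnr1 stayed at -1.59, and it and the other 6 called ratios lost their call (adjusted p = 0.0729 to 0.188, the smallest raw p of that test being 0.0313). Gm10925 also lost its call there (adjusted p = 0.0860), and 9 nuclear genes of mitochondrial gene expression were lower, against 14. At an adjusted p under 0.01, 6 mRNAs were higher (9 at 0.05; mt-Atp6, mt-Nd5 and mt-Nd6 were lost), 1 member was lower (2), Gm10925 was not called, and of the nuclear genes of mitochondrial gene expression 23 were higher (36) and 8 lower (14). With no filter 0 nuclear subunits were lower (1).

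Without DMSO3-1 replicates 2 to 5, 7 of the 15 changed their call, with 2 libraries left in that group and log2 fold changes of 0.20 to 1.43 for the 9 mRNAs called before: 2 mRNAs, and 2 members in all, were higher (9), 2294 of all tested genes were lower (3473), 18 nuclear genes of mitochondrial gene expression were higher and 5 lower, and 2 nuclear subunits were lower. There mt-Rnr2 to mt-Rnr1 was at -1.19 (adjusted p = 0.0625, smallest raw p 0.0357), and the values of mt-Nd3 (log2 fold change -0.066) and the ratios of mt-Co1 (-0.15), mt-Co2 (-0.25), mt-Atp6 (-0.076) and mt-Nd3 (-0.92) to the other mRNAs changed sign; these had not been called. The causes were not tested. With 1 library left out, mRNAs called higher were 8 to 10, nuclear genes of mitochondrial gene expression called lower 9 (without DMSO3-1 replicate 2) to 17, and the ratios of mt-Atp6 (-0.11 to 0.24) and mt-Atp8 (-0.0090 to 0.64) changed sign. Low counts limit mt-Co2, mt-Co3, mt-Nd3, mt-Atp6 and all tRNAs.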
